A study of Mus musculus with 12 samples.

Results

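Mouse N2a neuroblastoma cells were given an siRNA against Sap30bp, which encodes the nuclear protein SAP30BP, alone or with an induced Sap30bp cDNA. Genes of mRNA decay were followed through their splicing and expression tables. They were chosen by name as the deadenylases Pan2, Pan3, Parn, Cnot6, Cnot7 and Cnot8, the SKI complex genes Skiv2l and Ttc37, the nuclear exosome nuclease Exosc10 and the cytoplasmic nuclease Xrn1, which makes 10 of 54393 genes in the expression table. The choice was made with the knockdown results in view, so the knockdown against control values below describe these genes and are not a test of them. The inclusion table held 544 entries for the 10 genes, of which 95 could be tested, among 28980 tested entries of the whole table. Of the others, 109 lacked a value in at least 1 library and 340 had a mean under 2% or over 98%.

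A eukaryotic mRNA is usually taken apart from its poly(A) tail. PAN2-PAN3 and the CCR4-NOT complex, with the nucleases CNOT6, CNOT7 and CNOT8, shorten the tail, and PARN trims the tails of selected mRNAs and of small noncoding RNAs. The body is then degraded from the 3′ end by the RNA exosome, which in the cytoplasm is fed by the SKI complex, or from the 5′ end by XRN1 after the cap has been removed. SAP30BP is a partner of RBM17, a splicing factor that acts in the removal of short introns.

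All groups were N2a Flp-In rtTA cells, a neuroblastoma line with a single integration site and a doxycycline-responsive activator. At that site one line carried an inducible FLAG-Sap30bp cDNA without exon 3 (the E3-lacking line) and the other the same cDNA with exon 3 (the E3-containing line), so cDNA isoform and line cannot be told apart. In each line, cells received a non-targeting control siRNA pool (control), an siRNA against Sap30bp (knockdown), or that siRNA together with doxycycline, which switches on the siRNA-resistant cDNA (rescue). No group received doxycycline with the control siRNA. Doxycycline or plain medium was given 24 hours after transfection, wells of a condition were pooled at 72 hours, and each of the 6 groups had 2 biological replicates. Sap30bp itself read 40.0 RPKM (control), 21.7 (knockdown) and 196.5 (rescue), per the authors' deposited table, in the E3-lacking line, and 33.6, 18.6 and 141.3 in the E3-containing line. Its log2 fold change on knockdown in the authors' deposited table was -0.63 (FDR 0.067) and -0.60 (FDR 0.068). Neither passed the FDR threshold used below. The log2 RPKM ratios were -0.88 and -0.85 (pseudocount 0.1). For rescue against control the authors' log2 fold changes were 1.42 (FDR 3.98e-09) and 1.02 (FDR 0.000106), beside log2 RPKM ratios of 2.29 and 2.07. The size of the change thus depended on the measure, and the cause was not tested. Of 15 neuroblastoma and neuronal markers, 11 were at 1 RPKM or more in all groups, with Th, Nefl and Nefm below. The 8 fibroblast markers summed to between 1.58 and 4.28 RPKM with Col3a1 listed at 0. Of 9 glial and immune markers, 2 were at 1 RPKM or more in all groups, and the list summed to between 9.02 and 11.56 RPKM. The read depth behind the values is unknown, and 182904 to 207284 entries had a value per library.

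The called splicing changes of the knockdown were in Pan2 and Skiv2l. An event was called when limma's Benjamini-Hochberg adjusted p was under 0.05 and the difference was at least 15 percentage points, for the mean of both lines. By this rule 7 of the 95 member events were called, against 1.48% of all 28980 events. They were 1 intron of Pan2, 5 introns of Skiv2l and 1 exon of Skiv2l. Since these genes were picked for such changes, nothing is read from this count. It fell to 2 (the Pan2 intron and the Skiv2l exon) when events with extreme means were also tested. It was 4 without replicate 1 of the control of either line, and 3 without replicate 2 of the control of the E3-lacking line or without replicate 2 of the knockdown of either line.

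Several of the retained introns have a sequence in the reference, and they are shown to let the reader see what is kept in the mRNA. Each of the 215 member introns of the inclusion table was matched to a GENCODE M21 intron on GRCm38 by its length and the lengths of its flanking exons, 207 with both exons and 8 with 1. For 23 of them an annotated transcript that keeps the intron gives its letters. Lines run 5′ to 3′ on the gene's own strand, positions are GRCm38, and capitals mark the first stop codon in the reading frame that enters from the upstream exon. Skiv2l introns 12, 8 and 10 were called, the last shown by its first and last 60 bases. Skiv2l introns 11 and 22 and Pan2 intron 13 are neighbours or length matches that were not called, and Xrn1 intron 7 is a further short intron with high retention.
Skiv2l intron 12 (72 nt), chr17:34845756-34845827, minus strand: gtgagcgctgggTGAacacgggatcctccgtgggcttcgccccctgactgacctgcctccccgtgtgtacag
Skiv2l intron 8 (147 nt), chr17:34846996-34847142, minus strand: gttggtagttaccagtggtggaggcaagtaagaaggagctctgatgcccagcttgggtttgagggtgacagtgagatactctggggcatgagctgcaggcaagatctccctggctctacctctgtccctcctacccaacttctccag
Skiv2l intron 10 (348 nt), chr17:34846174-34846521, minus strand, first 60 bases: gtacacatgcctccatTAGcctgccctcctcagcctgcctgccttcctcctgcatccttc
Skiv2l intron 10, last 60 bases: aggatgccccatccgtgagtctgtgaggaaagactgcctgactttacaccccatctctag
Skiv2l intron 11 (114 nt), chr17:34845913-34846026, minus strand: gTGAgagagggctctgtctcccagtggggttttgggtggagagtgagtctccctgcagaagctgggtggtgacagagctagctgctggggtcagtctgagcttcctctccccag
Skiv2l intron 22 (83 nt), chr17:34840985-34841067, minus strand: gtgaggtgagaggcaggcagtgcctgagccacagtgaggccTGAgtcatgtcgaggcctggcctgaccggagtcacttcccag
Pan2 intron 13 (131 nt), chr10:128314317-128314447, plus strand: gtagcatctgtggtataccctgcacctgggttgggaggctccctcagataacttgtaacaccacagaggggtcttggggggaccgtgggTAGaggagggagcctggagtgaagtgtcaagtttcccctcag
Xrn1 intron 7 (83 nt), chr9:95973367-95973449, plus strand: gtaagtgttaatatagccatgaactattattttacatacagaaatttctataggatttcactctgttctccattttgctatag

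In Skiv2l intron 12 the stop codon begins at base 13, and in intron 10 at base 17. Skiv2l intron 8 holds no stop codon in frame, and its 147 nt are 49 codons, so reading through it keeps the frame. All frames given here hold only for a transcript that keeps the named intron alone and all annotated exons. Xrn1 intron 7 also has no stop in frame, but its length is not a multiple of 3. Skiv2l introns 12 and 22, with like lengths and a GC content of 66.7% and 63.9%, differed in retention: the first was at 37.9% to 60.8% in the knockdown libraries and the second at 5.15% to 7.43%. Pan2 intron 12 spans 141 nt, or 47 codons, between exons of 200 and 134 nt. Skiv2l introns 7 and 9, of 83 and 199 nt, are not multiples of 3. No annotated transcript used here gives the letters of these last 3, so whether they hold a stop codon in frame is not known.

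Pan2 encodes the nuclease subunit of PAN2-PAN3. Its intron 12 of 25 (141 nt, mm9 chr10:127751098-127751238) was retained in 11.0% and 17.1% of transcripts in the control libraries of the E3-lacking line, in 42.2% and 68.4% after knockdown and in 25.6% and 29.0% after rescue. In the E3-containing line the values were 16.5% and 12.8% in control, 71.3% and 51.6% after knockdown, and 49.4% and 51.0% after rescue. All 4 knockdown libraries were above all 4 control libraries. The mean difference between knockdown and control was 44.0 points (SE 5.75), the largest of any member event, and the intron was called under every alternative setting tried. The group means were 14.1% ± 4.33 in control and 55.3% ± 18.5 in knockdown in the E3-lacking line, and 14.6% ± 2.63 and 61.4% ± 13.9 in the other (SD, n = 2).

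Retention along Pan2 was uneven. Intron 13 (131 nt) was already kept in 46.4% and 61.6% of control transcripts of the E3-lacking line and in 69.2% and 52.3% of the other. After knockdown it stood at 58.5% and 79.8%, and at 82.5% and 71.0%, a difference of 15.5 points (SE 6.07) that was not called. Control and knockdown libraries overlapped in the E3-lacking line only. Introns 10 and 11 (354 and 98 nt) differed by 8.87 points (SE 3.88) and 7.46 points (SE 1.94), and intron 17 (250 nt), which was at 48.9% to 53.5% in the control libraries, by 9.78 (SE 4.62). The other 10 tested Pan2 introns differed by between -5.24 and 1.30 points. A further 7 Pan2 introns with full values, 4 of them under 200 nt, never exceeded 3.23% in any library. The Pan2 introns with a difference of 7.46 points or more were thus introns 10 to 13 and 17, a grouping made after the values were seen, and several short introns of the gene were not among them. The 134-nt exon between introns 12 and 13 was included in 98.6% to 100% of control transcripts, in 89.8% and 85.2% after knockdown in the E3-lacking line and in 93.3% and 100% in the other, a difference of -7.57 points (SE 1.70), which is under the 15-point threshold.

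**Figure D1:**
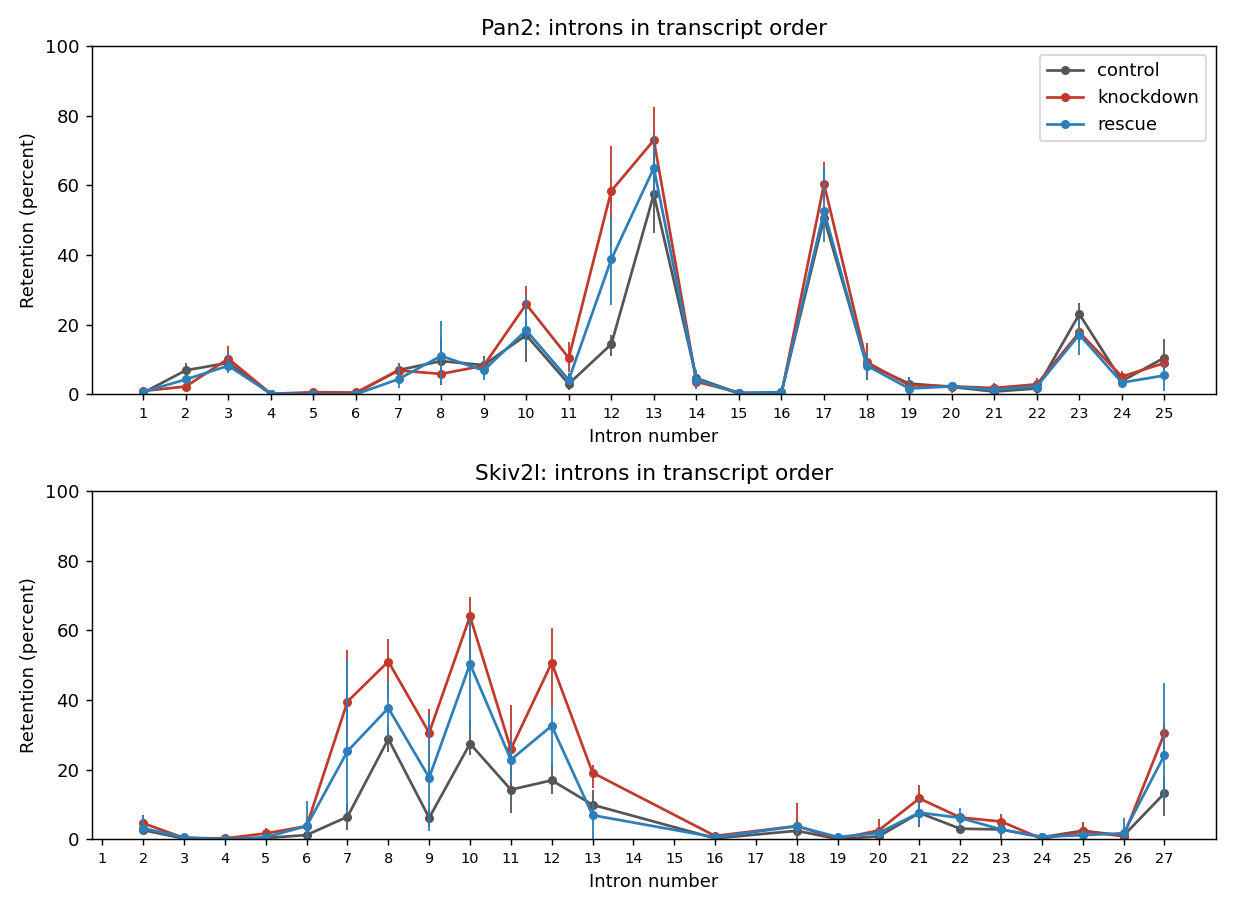
Retention of each intron of Pan2 (25 introns) and Skiv2l (27 introns, those with values) in transcript order, in percent. Points are means over the 4 libraries of a condition (both lines, missing values left out) and vertical lines run from the lowest to the highest library; the lines of knockdown and control do not overlap at introns 10, 11, 12 and 17 of Pan2 and at introns 7 to 10, 12, 13 and 27 of Skiv2l, and they overlap at intron 13 of Pan2 and intron 11 of Skiv2l.

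Skiv2l encodes the RNA helicase of the SKI complex, which unwinds mRNA for the cytoplasmic exosome. Its introns 7 to 13 form a stretch, singled out after its values were seen, in which all 7 introns had a higher mean after knockdown, by 9.22 to 36.6 points with a median of 24.4, and 5 were called. Intron 10 (348 nt, mm9 chr17:34983119-34983466) was at 25% and 34.5% in control, 50.1% and 69.7% after knockdown and 31.0% and 49.6% after rescue in the E3-lacking line. In the E3-containing line it was at 24.1% and 26.4%, then 67.9% and 68.6%, then 57.8% and 63.2%. Knockdown and control libraries did not overlap in either line, and the mean difference was 36.6 points (SE 5.11).

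Intron 12 (72 nt, mm9 chr17:34982701-34982772) rose in the same libraries from 14.6% and 21.7% to 37.9% and 60.8% in the E3-lacking line. In the E3-containing line it went from 13.04% and 18.6% to 54.2% and 50.0%, and the mean difference was 33.7 points (SE 5.34). It carries the early stop codon shown above. Intron 7 (83 nt, mm9 chr17:34984270-34984352) had the lowest control values beside those of intron 9, at 2.80% and 10.3% and at 6.06% and 6.90%. After knockdown it was at 28.6% and 54.4% in the E3-lacking line and at 39.1% and 36.2% in the other, a difference of 33.1 points (SE 7.02). Its call was the least stable of the 7: it was lost in 9 of 18 alternative settings.

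Intron 9 (199 nt, mm9 chr17:34983613-34983811) was at 3.65% and 4.84%, and at 7.69% and 8.64%, in the control libraries of the lacking and containing lines. After knockdown it was at 16.1% and 32.6%, and at 36.4% and 37.5%, which is 24.4 points higher (SE 4.91). Intron 8 (147 nt, mm9 chr17:34983941-34984087) is the one whose sequence keeps the frame open when it alone is kept. It started higher, at 29.2% and 32.5% and at 25% and 28.8%. It reached 40.6% and 55.3%, and 51.0% and 57.5%, a difference of 22.2 points (SE 4.30). Introns 11 and 13 (114 and 334 nt) lay in the same stretch and differed by 11.7 points (SE 4.91) and 9.22 points (SE 3.13) without being called. For intron 11 the knockdown value of 15.2% in replicate 1 of the E3-lacking line was below both of its controls.

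The 182-nt exon between introns 7 and 8 of Skiv2l (mm9 chr17:34984088-34984269) was skipped more often. It was included in 98.1% and 100% of control transcripts of the E3-lacking line and in 100% and 98.3% of the other. Inclusion was 89.6% and 79.8% after knockdown in the first line and 84.6% and 80.6% in the second, a mean difference of -15.5 points (SE 2.15). No knockdown library overlapped a control library. This difference lies just past the 15-point threshold. It was -14.99 points without replicate 2 of the control and -13.02 without replicate 2 of the knockdown of the E3-lacking line, and -14.4 without replicate 2 of the knockdown of the other line. The 107-nt exon after intron 12 differed by -7.26 points (SE 1.75).

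Outside introns 7 to 13, the last intron of Skiv2l, intron 27 (85 nt), stood apart. It was at 6.77% and 18%, and at 10.1% and 18.1%, in the control libraries, and at 30.5% and 32.9%, and at 33.3% and 25.2%, after knockdown, with no overlap in either line. The difference was 17.2 points (SE 5.03) and was not called. Whether this intron was called depended on the pooled spread. Without replicate 1 or without replicate 2 of the rescue of the E3-containing line, the SE fell to 3.79 and 3.73. Those libraries do not enter the knockdown difference, which stayed at 17.2 points. The other 7 tested introns differed by -0.20 to 4.18 points, and 8 more with full values, all under 200 nt, stayed at or below 6.12% in every library.

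**Figure D2:**
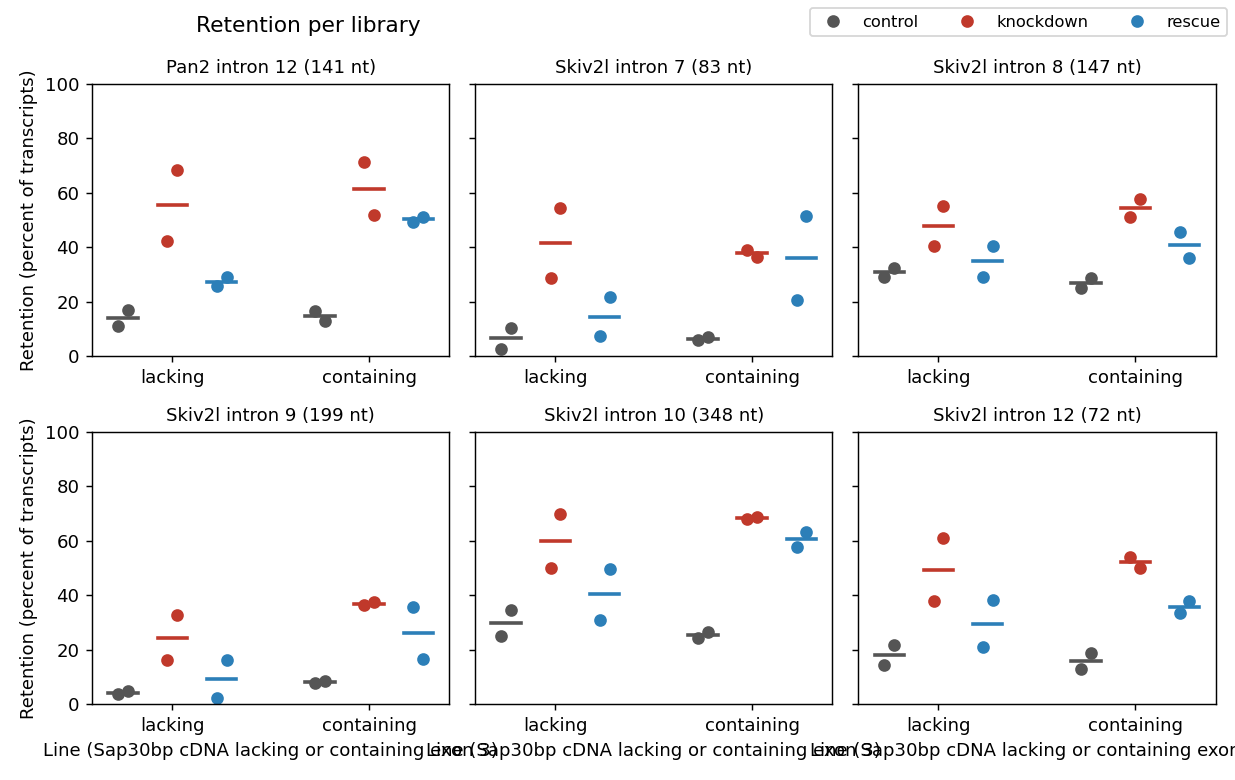
Retention, in percent of transcripts, of the 6 called introns in each of the 12 libraries, with control, knockdown and rescue side by side in each line. Points are libraries and bars are group means of 2; all knockdown points lie above all control points of their line, from 16.1% (Skiv2l intron 9) to 71.3% (Pan2 intron 12).

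In the E3-lacking line, replicate 2 was above replicate 1 for all 6 called introns in control, in knockdown and in rescue. The corresponding counts in the E3-containing line were 5, 3 and 4 of 6. Sap30bp levels are not given per library in the files used here, so whether they moved with this was not tested. The called introns of Pan2 and Skiv2l overlap no other annotated gene. Skiv2l overlaps the oppositely oriented gene Dxo by 6 bases at its 3′ end, outside these introns.

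Xrn1, the 5′ to 3′ exonuclease of the cytoplasm, had no event called in the limma fit, but its short intron 7 (83 nt, mm9 chr9:95873786-95873868) lacked a value in 1 library and was therefore not in the test. It was at 2.33% and 6.25% in control and 35.7% and 33.3% after knockdown in the E3-lacking line, with 14.3% in the rescue library that had a value. In the E3-containing line it was at 0% in both control libraries, at 17.6% and 33.3% after knockdown and at 18.8% and 12.3% after rescue. Every knockdown library was above every control library. When events with at least 10 values were admitted, this intron was called as well. The neighbouring intron 6 (2467 nt) was at 8.47% and 5.26% in control and at 48.3% and 30.4% after knockdown in the E3-lacking line, but at 9.09% and 21.6% after knockdown in the other, where the control library with a value was at 4.92%. The 5 tested Xrn1 introns, of 149 to 6091 nt, differed by -1.14 to 1.55 points. A 116-nt exon of Xrn1 differed by -5.88 points (SE 1.64) and was not called.

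An alternative 5′ splice site that extends an Xrn1 exon by 12 nt had a different pattern. Its use did not separate control from knockdown: the values were 37.7% and 30.4% against 32.3% and 34.0% in the E3-lacking line, and 9.94% and 33.2% against 11.8% and 22.7% in the other. After rescue it was at 21.7% and 37.4% in the first line and at 45.6% and 43.0% in the second. Rescue minus knockdown was -3.625 points in the E3-lacking line and 27.01 points in the E3-containing line. The difference between the lines was 30.6 points (95% interval 6.87 to 54.3), and it did not pass adjustment over all events (limma adjusted p 0.933). The control mean of the E3-containing line was 21.6% ± 16.5 (SD, n = 2).

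Pan3 encodes the subunit that positions PAN2 on the tail. Its 629-nt intron, which another annotated Pan3 transcript keeps, was at 74.4% and 69.8%, and at 68.8% and 69.4%, in control and lower after knockdown, at 61.7% and 57.3%, and at 64.8% and 60.3%. Knockdown was below control in all libraries, a difference of -9.60 points (SE 2.53), and the event was not called. A 118-nt exon of Pan3 differed by -6.57 points (SE 2.84). The other 5 tested Pan3 introns, all of 2397 nt or more, differed by -4.07 to 3.87 points.

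Exosc10 encodes the nuclear exosome's RNase D-type nuclease. A 60-nt alternative 5′ splice site extension was used in 17.1% and 10.4%, and in 20.4% and 13.6%, of control transcripts and in 9.58% and 5.92%, and in 8.24% and 3.85%, after knockdown. The difference was -8.46 points (SE 2.97). The adjoining 141-nt intron 15, which covers part of the same bases, differed by -4.95 points (SE 1.75), and it has the same length as the called Pan2 intron. Neither was called. Of 8 tested Exosc10 introns, 1 had a positive difference, beside 64.9% of all tested introns.

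Ttc37, the scaffold of the SKI complex, had 2 tested introns, and neither was called. Intron 41 (2618 nt) was at 5.38% to 7.41% in the control libraries and at 6.38% to 21.9% after knockdown, a difference of 7.70 points (SE 3.06). Intron 42 (2181 nt) differed by -1.35 points. Parn, Cnot6 and Cnot7 had tested differences of between -1.78 and 1.40 points. In Parn these ends were a 66-nt exon (-1.78 points, SE 1.21) and a 2135-nt intron (1.40, SE 1.45). Cnot6 had a 15-nt extension (-1.63, SE 3.11) and a 931-nt intron (1.35, SE 0.82), and the largest difference in Cnot7 was that of a 111-nt exon (1.15, SE 1.08). Cnot8 had 7 entries and none could be tested.

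The authors' deposited table of splicing calls, which takes each line alone and does not state its test, named further member events on knockdown. It called 10 in the E3-lacking line, or 2.06% of member events with values beside 0.447% of all, and 9 in the E3-containing line, or 1.94% beside 0.577%, per the authors' deposited table. In both lines the authors' deposited table called Pan2 intron 12, Skiv2l introns 7, 8, 9, 10 and 12 and Xrn1 intron 7, the last with 28.2 and 24.1 points. In the E3-lacking line it also called Skiv2l intron 27 (18.5 points), Xrn1 intron 6 (31.2) and a 191-nt exon of Xrn1 (23.1), in the authors' deposited table. The authors' deposited table also called, in the E3-containing line, Pan2 intron 13 (16.3 points) and the 182-nt exon of Skiv2l (-16.5). These libraries chose the genes, so nothing is read from the counts.

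Most of the called introns were under 200 nt, and all but that of Pan2 lie in Skiv2l. Of the tested member introns, 5 of 19 under 200 nt (26.3%) and 1 of 35 longer ones (2.86%) were called higher, where the shares over all tested introns were 4.87% and 0.43%. The median difference was 3.23 points for the short member introns and 0.06 for the longer ones, beside 2.64 and 0.41 points over all introns of those lengths. Pan2 and Skiv2l hold most of the short tested introns, so length and gene cannot be told apart among the members. Of 54 tested member introns, 14 (25.9%) had both knockdown libraries above both controls in both lines, beside 14.1% of all tested introns. The knockdown values chose these genes, so nothing is read from the member shares being above those of all introns.

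**Figure D3:**
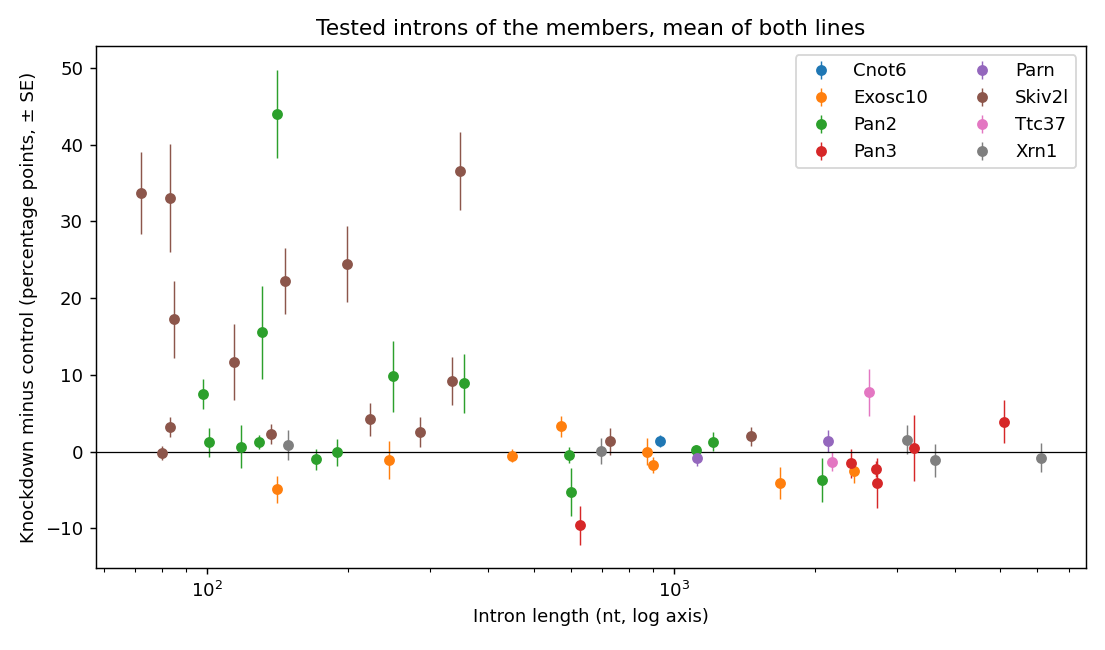
Knockdown minus control, in percentage points for the mean of both lines, against intron length in nt (log axis) for the 54 tested member introns, coloured by gene, with bars of 1 SE. The points far above 0 are Pan2 and Skiv2l introns of 72 to 348 nt, and the introns of the other genes lie between -9.60 and 7.70.

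The rescue comparisons asked how far each cDNA brought the events back. They use the knockdown libraries that chose these genes, so a fall from a high knockdown value is in part set by that choice. Retention of Pan2 intron 12 differed between rescue and knockdown by -28.0 points in the E3-lacking line (95% interval -45.9 to -10.1). The difference was -11.3 points in the E3-containing line (95% interval -29.2 to 6.59). Its rescue libraries did not overlap the knockdown libraries in either line. In the second line it was 35.5 points above control after rescue (95% interval 17.6 to 53.4). The control libraries also entered the choice of these genes, so this gap is in part set by that choice and is a description.

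Among the Skiv2l introns, intron 7 differed most between the lines: rescue minus knockdown was -26.97 points with the E3-lacking cDNA and -1.56 with the E3-containing cDNA, where the rescue libraries lay at 20.6% and 51.6% and overlapped knockdown, against 7.50% and 21.6% in the first line. Intron 10 gave -19.6 and -7.73 points, and intron 9 gave -15.05 and -10.7, its rescue libraries being at 2.38% and 16.2%, and at 35.7% and 16.7%. Rescue and knockdown overlapped for intron 9 in the E3-lacking line, by 16.2% against 16.1%. Intron 12 gave -19.7 and -16.5 points, with rescue at 21.1% and 38.2%, and at 33.3% and 37.9%, which overlapped knockdown in the E3-lacking line. Intron 8 gave -13.2 and -13.6, with rescue at 29.1% and 40.5%, and at 45.5% and 35.9%. Intron 27 gave -16.6 and 4.01 points. The skipped 182-nt exon went the other way, with 7.21 and 12.1 points more inclusion, the larger value being that of the E3-containing cDNA.

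Expressed as a share of the knockdown change that rescue removed, where 100% is the control level, the 6 called introns had a median of 71.4% (63.2% to 77.1%) in the E3-lacking line and 30.7% (5.00% to 49.6%) in the E3-containing line. Over all called introns with a change of at least 10 points in the line, the medians were 78.9% of 249 introns and 50.1% of 250. The difference between the lines was not significant for any member event: with limma, 0 of 95 were called, beside 0.00345% of all events, and the adjusted p-values were 0.933 or higher. At an unadjusted p under 0.05 there were 3 of 95, beside 5.27% of all events. The interval for Pan2 intron 12 ran from -8.50 to 42.1 points and that for Skiv2l intron 7 from -5.51 to 56.3, so these 12 libraries do not resolve differences of that size.

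No member event was called for rescue against knockdown (lacking or containing line) or for rescue against control, beside 0.00345% and 0% and again 0.00345% and 0% of all events. The lowest limma adjusted p-values among the members in these 4 comparisons were 0.267, 0.43, 0.873 and 0.246. At an unadjusted p under 0.05 there were 14, 9, 3 and 14 of 95 member events, beside 8.57%, 6.84%, 5.58% and 8.39% of all events. For the difference of the knockdown change between the lines, limma called 0 of 95 member events, beside 0% of all events, and 2 had an unadjusted p under 0.05, beside 3.20% of all events. In the authors' deposited table of splicing calls, 5 member events were called for rescue against knockdown in the E3-lacking line, Pan2 intron 12 and Skiv2l introns 7, 10, 12 and 27, or 1.09% of those with values beside 0.233% of all. In the E3-containing line the authors' deposited table called 1, the 12-nt Xrn1 site (25.7 points), or 0.216% beside 0.0911%. For rescue against control the authors' deposited table called 1 member event in the E3-lacking line, a 76-nt alternative 3′ splice site extension of Skiv2l (-19.53 points), or 0.216% beside 0.142% of all. The authors' deposited table called 5 in the E3-containing line, Pan2 intron 12 and Skiv2l introns 7, 10, 12 and 27, or 1.06% beside 0.245%. The rescue comparisons use the knockdown or control libraries that chose the genes, so nothing is read from these member counts and shares.

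**Figure D4:**
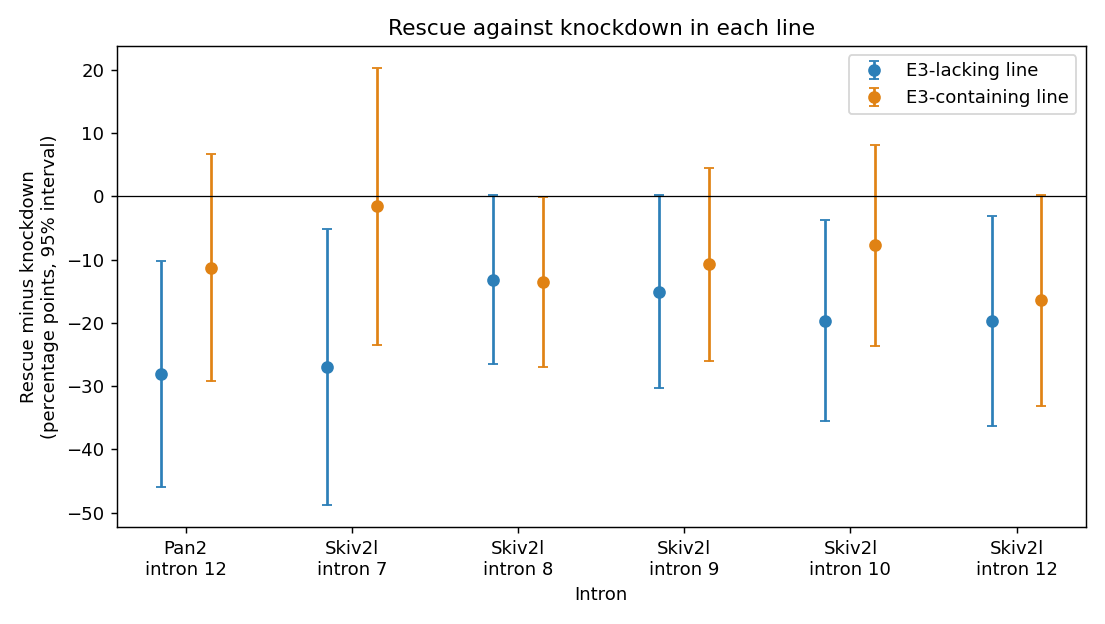
Rescue minus knockdown, in percentage points, for the 6 called introns in the E3-lacking line (blue) and the E3-containing line (orange), with 95% intervals. All 12 estimates are below 0, from -28.0 to -1.56, and the intervals of both lines overlap for each intron.

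Gene expression was read from the authors' deposited table, which holds 1 RPKM value (reads scaled to gene length and library size) per group and no spread between libraries. The highest of the 10 genes was Cnot7, at 139.7 to 179.0 RPKM, followed by Cnot6 at 82.5 to 108.6 RPKM, Cnot8 at 44.1 to 72.6 and Exosc10 at 37.5 to 57.0, in the authors' deposited table. The lowest were Ttc37 at 10.9 to 13.5 RPKM and Xrn1 at 8.51 to 13.6 in the authors' deposited table. Between them lay Pan2, Pan3, Parn and Skiv2l. In bulk RNA, fewer cells that express a gene and less RNA per cell cannot be told apart.

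In the authors' deposited table Pan2 was at 24.7, 34.3 and 25.6 RPKM in control, knockdown and rescue of the E3-lacking line and at 19.6, 24.5 and 22.2 in the E3-containing line. Its log2 fold change on knockdown in the authors' deposited table was 0.50 (FDR 0.175) and 0.35 (FDR 0.436). Skiv2l was at 15.3, 21.5 and 15.2 RPKM and at 10.6, 15.7 and 15.2 RPKM in the authors' deposited table, with log2 fold changes of 0.30 (FDR 0.66) and 0.23 (FDR 0.747). By RPKM both genes were thus highest in the knockdown group of each line, and neither passed an FDR of 0.05. For Skiv2l in the E3-containing line the knockdown and rescue values, 15.7 and 15.2 RPKM, were close. There its log2 RPKM ratio on knockdown was 0.56 (pseudocount 0.1), a gap of 0.33 from the log2 fold change of 0.23. The 95th percentile of this gap was 0.231 over genes at 5 RPKM or more in all groups. Whether retained-intron transcripts make up the added RPKM was not tested.

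No member passed an FDR of 0.05 on knockdown in the authors' deposited table, beside 2.26% of tested genes in the E3-lacking line and 3.68% in the E3-containing line. At an unadjusted p under 0.05 there was 1 member in each line, beside 11.9% and 13.6% of all genes in the authors' deposited table. The median log2 fold change of the 10 genes in the authors' deposited table was 0.14 and 0.25, beside 0.00 over all genes in both lines. No member passed for rescue against knockdown or rescue against control either, beside 0.0232% and 0.00464%, and 0.924% and 2.27%, of all genes in the authors' deposited table. In these 4 comparisons the lowest FDR among the members in the authors' deposited table was 0.535, and 2, 0, 0 and 0 members had an unadjusted p under 0.05, beside 5.98%, 1.33%, 8.22% and 10.5% of all genes.

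Cnot8, a CCR4-NOT nuclease, gave conflicting readings. Its RPKM in the authors' deposited table was 51.6, 72.6 and 55.5 in control, knockdown and rescue of the E3-lacking line and 44.1, 64.5 and 57.3 in the E3-containing line, log2 ratios on knockdown of 0.49 and 0.55. The log2 fold changes in the authors' deposited table were -0.05 and -0.06. A gap of this size was seen in 0.166% of the 9060 genes at 5 RPKM or more in all groups, where the median absolute gap was 0.04 and 0.05. The RPKM values and the fold changes thus do not give 1 direction for Cnot8, and the cause was not tested.

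**Figure D5:**
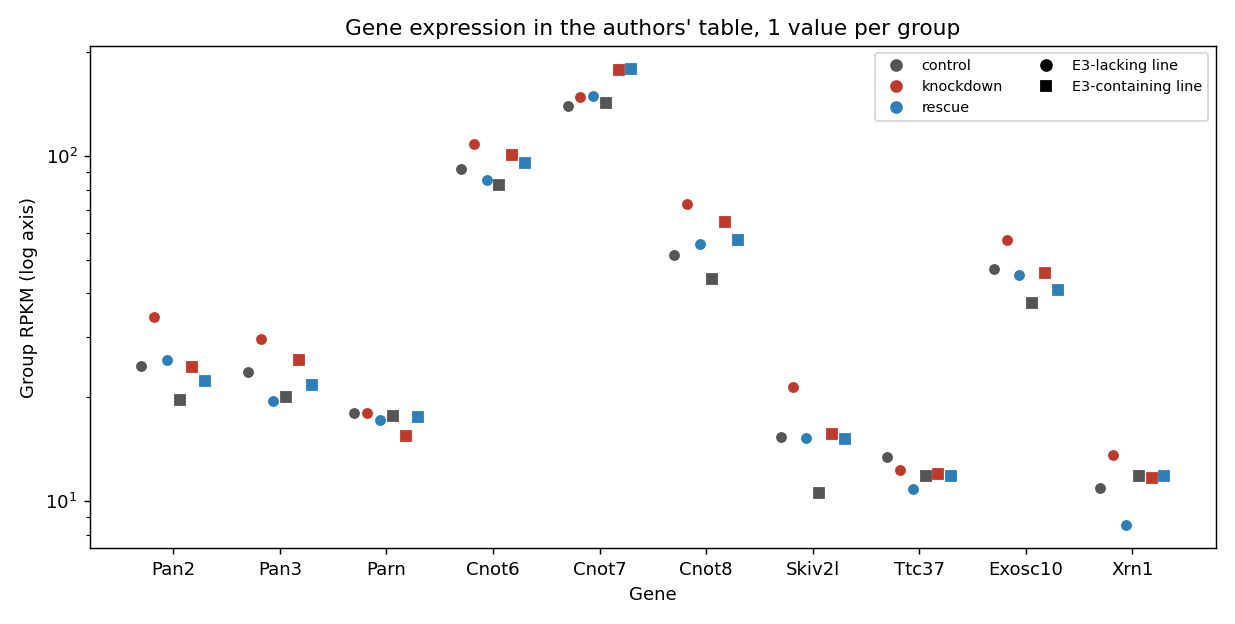
Expression of the 10 genes in RPKM (log axis), 1 value per group from the authors' deposited table, with control, knockdown and rescue in each line (circles for the E3-lacking and squares for the E3-containing line). Pan2, Pan3, Cnot6, Cnot8, Skiv2l and Exosc10 are highest in the knockdown group of both lines; no replicate spread is available.

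The wider decay machinery was described through 80 other genes in 6 lists. Of their 309 tested events, 3 were called on knockdown, all introns retained more, beside 1.48% of all events. Zfc3h1, a cofactor of the nuclear exosome, retained a 73-nt intron in 15.2% and 17.6%, and 8.89% and 18.8%, of control transcripts and in 39.8% and 49.5%, and 39.4% and 46.4%, after knockdown, a difference of 28.7 points (SE 3.81). Edc4, a scaffold of the decapping complex, retained introns of 75 and 87 nt by 19.9 points (SE 3.41) and 17.8 points (SE 2.18) more. The lists of 6 other deadenylases, 18 CCR4-NOT subunits and recruiters, 5 SKI and ribosome rescue genes and 9 poly(A) binding and uridylation genes held no called event. In expression, 0 of 79 tested genes of the 6 lists passed the FDR in the authors' deposited table in either line. At an unadjusted p under 0.05 there were 6 and 8 of the 79, beside 11.9% and 13.6% of all genes. Their median log2 fold change was 0.13 and 0.15, beside 0.00 over all genes in both lines.

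Introns with the most similar profile over the 12 libraries were sought among 17042 tested introns of other genes. For Pan2 intron 12 they lay in Recql4 (77 nt, Pearson's r 0.971), Cpsf1 (66 nt, 0.970), Tecr (76 nt, 0.968), Ap2a1 (184 nt, 0.967) and Abca7 (151 nt, 0.963). For Skiv2l intron 10 they lay in H2-D1 (173 nt, 0.975), Actr1b (157 nt, 0.974), BC053749 (83 nt, 0.973), Acap3 (176 nt, 0.958) and Atp13a2 (115 nt, 0.956). Between Pan2 intron 12 and Skiv2l intron 10, r was 0.950. Pearson's r takes no account of the size of a change. The introns like Pan2 intron 12 had knockdown differences of 5.48 points (Ap2a1) to 37.4 points (Cpsf1), beside its own 44.0. Those like Skiv2l intron 10 had 3.84 points (Atp13a2) to 30.1 points (BC053749), beside its own 36.6. The points share the same libraries and the same 6 groups, and the values are a description.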

How the data were processed

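The members and the gene lists were chosen with earlier results of these data known. Percent spliced in is the percent of transcripts with an exon, splice site or retained intron. It was deposited per event and library in a vast-tools table on mm9. The sources used here do not give its version or coverage rule. The authors deposited 1 RPKM per group, with log2 fold changes, p-values and FDR per comparison, and Salmon 0.14.1, edgeR and mm9 are named in the submitters' processing notes. The authors' deposited splicing table lists differences in percent with a call. Whether counting used strand is likewise not known, nor is the depth per sample.

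From 401633 entries, the 37194 first sites of alternative splice site groups were left out. Events with 12 values and a mean of 2% to 98% were fitted with limma 3.58.1 in R 4.3.3, with 6 group means and a trended, robust variance, tested on simulated data. Calls needed an adjusted p (Benjamini-Hochberg) under 0.05 and 15 points. Replicates of a group differed by a median of 2.05 to 2.69 points. The expression test had been planned per library. The table holds group values, so the authors' FDR was used in its place. Named were all 10 genes, each called member event, each member's tested intron and other event with the largest difference, list genes with a call, and the 5 introns most like Pan2 intron 12 and Skiv2l intron 10. Further events were named after their values had been seen: those beside a called intron, those in the authors' splicing table, and contrasts of length. Alternatives were a replicate block, a logit scale, no filter on the mean, values in at least 10 libraries, an untrended variance, 10 points, leaving out each library, and RPKM ratios with pseudocounts of 1 and 0.1.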

Additional observations from a re-analysis of the deposited data

How the results depend on the processing

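On knockdown, 7 member events were called. Testing also the events with extreme means gave 2, where 117021 events were tested in place of 28980, and 3 to 8 when each library was left out in turn. It was 6 to 8 under the other settings. For the 21 named events, 351 of 378 alternative values of the knockdown difference kept their direction and side of the threshold, 27 kept the direction without passing, and none reversed. The counts of called member events in the rescue comparisons and in both differences between the lines were 0 under every setting, leaving out each library included, and so was the count of members past the FDR when Benjamini-Hochberg values were recomputed over genes with at least 1 RPKM. With the replicate number as a block, 8 member events were called, the added one being Skiv2l intron 27, and 514 over all events in place of 430. The labels share only a number between groups, and the differences between replicates correlated by 0.0417 to 0.310 between groups, so the fit without the block is reported.

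Among expression changes on knockdown, the sign of Cnot8 reversed with RPKM ratios in place of the authors' log2 fold changes. The log2 ratio was 0.486 (pseudocount 1) and 0.493 (pseudocount 0.1) in the E3-lacking line and 0.536 and 0.545 in the E3-containing line. Ttc37, at -0.09 in the authors' deposited table for the E3-containing line, became 0.0257 and 0.0276. Signs also differed for some members in the rescue comparisons. For Cnot8, rescue against knockdown in the E3-lacking line was 0.178 in the authors' deposited table and -0.388 by RPKM ratio (pseudocount 0.1). Its rescue against control in the E3-containing line was -0.08 and 0.376 by the same measures. The cause was not tested. No read numbers come with the percentages, so the precision of single values is unknown, and 2 replicates per group limit what the differences between lines can show.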
